A study of Homo sapiens with 31 samples.

Results

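The genes of the death receptor and RIPK1 complex machinery were examined in NALM-6, an established human cell line of precursor B-cell acute lymphoblastic leukaemia (preB-ALL). Members were taken by gene name, from a list drawn up with earlier results of these data known. They are the rows whose Ensembl identifier belongs to RIPK1, FADD, TRADD, TRAF2, CFLAR, TNFRSF1A, TNFRSF10B, FAS, CYLD or RNF31, and all 10 were found among the 30667 genes of the table. Of these, 8 were expressed at low to middling levels in every library, FAS was close to the limit of detection, and RNF31 was all but undetected. None of the 9 genes that could be tested passed the significance threshold in any of 8 comparisons by construct or by day. The largest difference was that of FAS, which was 0.464-fold at day 13 relative to day 4 (95% interval 0.261 to 0.824), and it did not withstand correction over all genes (adjusted p = 0.580, limma-voom with Benjamini-Hochberg adjustment).

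As background, death receptors are cell surface receptors of the TNF receptor superfamily whose intracellular death domains recruit adaptor proteins. Ligand-bound TNFRSF1A (TNF receptor 1) assembles TRADD, RIPK1 and TRAF2, and the linear ubiquitin chain assembly complex (LUBAC), whose catalytic subunit is RNF31 (HOIP), decorates this platform with ubiquitin that supports NF-κB signalling, whereas the deubiquitinase CYLD trims such chains. FAS and TNFRSF10B (TRAIL receptor 2) instead recruit FADD, which brings in caspase-8, and CFLAR (cFLIP) limits the activation of that caspase. RIPK1 and FADD can also meet in a cytosolic complex, the ripoptosome, from which apoptosis or necroptosis may start. XIAP, the target of the knockdown (KD) in this study, acts further down by binding active caspases.

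The data comprised 31 bulk RNA-seq libraries of NALM-6 cells that carried 1 of 4 lentiviral constructs. A short hairpin RNA (shRNA) directed against XIAP (sh-XIAP) or a control shRNA (sh-CTRL) was driven by the strong SFFV promoter or the moderate EF1a promoter, so that SFFV/sh-XIAP against SFFV/sh-CTRL stands for strong XIAP KD and EF1a/sh-XIAP against EF1a/sh-CTRL for moderate XIAP KD. Cells were collected 4, 10 and 13 days after transduction. Day 4 had 3 libraries of each sh-CTRL construct and 2 of each sh-XIAP construct, and days 10 and 13 together had 6 of EF1a/sh-CTRL, 5 of EF1a/sh-XIAP, 4 of SFFV/sh-CTRL and 6 of SFFV/sh-XIAP. All 4 constructs, the controls included, were integrated vectors with a miR30 cassette that expressed a fluorochrome together with the shRNA, and the control shRNA was directed against eGFP, a jellyfish-derived sequence. There was no untransduced group, and each group was a transduced population of a single cell line. The sample labels describe cells kept in vitro, although the series' design text speaks of cells taken from mouse bone marrow, and the sample labels were followed.

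Expression was measured by prime-seq, which tags the 3′ end of each mRNA molecule with a unique molecular identifier (UMI), so that a count stands for molecules and does not grow with gene length. Libraries held 312852 to 1153668 UMIs (median 603822), and levels are given as CPM, the UMIs of a gene brought to a common library size (counts per mega-UMI), after TMM scaling, a correction for differences in library composition. B-lineage identity was plain, as all 14 B-lineage markers were detected with a summed level of 5446 to 6242 CPM. Markers of T and NK cells summed to 1.91 to 14.4 CPM, myeloid markers to 0 to 25.6 CPM, and erythroid and stromal markers to 0 to 6.91 CPM. XIAP mRNA itself was sparse at 2 to 14 UMIs per library, and no KD was detected in it. Its level in SFFV/sh-XIAP was 0.833-fold that of SFFV/sh-CTRL on days 10 and 13 (95% interval 0.480 to 1.45, adjusted p = 0.975), and in EF1a/sh-XIAP 0.890-fold that of EF1a/sh-CTRL (0.533 to 1.49, adjusted p = 0.994). Falls of the mRNA below 0.480-fold and 0.533-fold, in that order, lay outside these intervals. The names strong and moderate KD rest on XIAP protein in the paper's Western blot, and protein was not measured here. The labels do not say whether libraries of a group came from separate cultures, so p-values measure only the spread between these libraries, which may be technical. Intervals on pooled UMIs cover counting error only.

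Among the 10 genes, the adaptor TRAF2 had the highest mean level, 32.2 ± 6.87 CPM (SD, n = 31), with 9 to 46 UMIs per library. The TRAIL receptor TNFRSF10B followed at 30.3 ± 7.12 CPM and the adaptor FADD at 27.2 ± 5.29 CPM. The kinase RIPK1 had 21.7 ± 7.13 CPM, the deubiquitinase CYLD 20.9 ± 7.65 CPM and the adaptor TRADD 19.96 ± 6.61 CPM. These 6 genes lay above the median of all genes tested, 15.6 CPM, while the remaining genes lay below it. TNFRSF1A reached 13.7 ± 5.48 CPM and the caspase-8 regulator CFLAR 8.75 ± 3.19 CPM, both detected in all 31 libraries. FAS had 2.81 ± 2.24 CPM and was seen in 24 libraries, and RNF31 had 0.261 ± 0.818 CPM and was seen in 5.

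**Figure D1:**
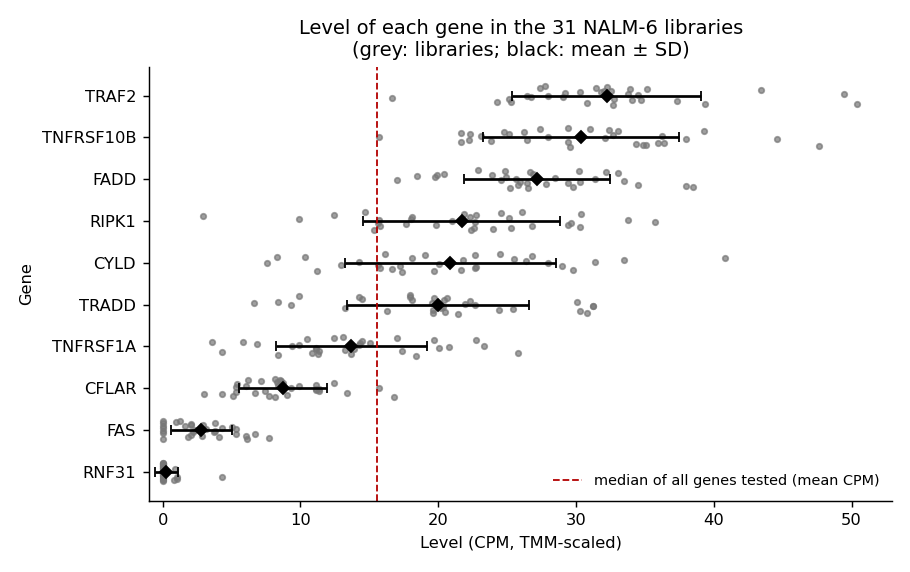
Level of each gene in the 31 NALM-6 libraries, with CPM after TMM scaling on the x axis and genes on the y axis; grey points are libraries, black diamonds with bars are mean ± SD, and the dashed red line is the median of all genes tested (15.6 CPM). TRAF2, TNFRSF10B and FADD lie to the right of the line, CFLAR and FAS to the left, and RNF31 sits at 0 in most libraries.

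Some neighbours in this order lay close together and others apart. TRAF2 was above TNFRSF10B in 18 of 31 libraries and below it in 11, with a mean difference of 1.88 ± 8.48 CPM (SD). RIPK1 was above CYLD in 18 and below it in 10, and CYLD was above TRADD in 17 and below it in 13, so RIPK1, CYLD and TRADD did not differ beyond their spread. TNFRSF10B was likewise above FADD in 18 and below it in 11. In the other steps the higher gene led in most libraries: FADD over RIPK1, TRADD over TNFRSF1A, TNFRSF1A over CFLAR and FAS over RNF31 in 23 of 31 each, and CFLAR over FAS in 26. Of these 5 mean differences, only those of CFLAR over FAS (5.94 ± 4.59 CPM, SD) and FAS over RNF31 (2.55 ± 2.30 CPM) were larger than their SD. Much of the scatter was of the size that counting alone gives. The coefficient of variation of TRAF2 was 21.3% where Poisson counting at its depth gives 23.2%, that of TNFRSF10B 23.5% against 23.9%, and that of FAS 79.7% against 78.5%. CYLD varied most beyond counting among the genes that could be measured, with 36.6% against 28.8%.

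RNF31 and FAS were too low to measure, by a rule that asked for over 1 CPM in at least 33.3% of the libraries of a fit and a median of at least 3 UMIs per library. RNF31 met neither condition, with 7 UMIs in all. Of these, 6 fell at day 4, namely 3 UMIs and 1 UMI in both EF1a/sh-XIAP libraries, 1 UMI in EF1a/sh-CTRL replicate 3 and 1 UMI in SFFV/sh-CTRL replicate 1. A single UMI fell at day 10, in SFFV/sh-XIAP replicate 3, and none in the 11 libraries of day 13. Pooled over libraries, 0 of 7195037 UMIs at day 13 allows a level of up to 0.417 CPM by a floor of 3 counts over the pooled day, where day 4 had 0.761 CPM on 6 counts. The exact interval of the ratio of day 13 to day 4 was 0 to 0.931. Of the 6 counts at day 4, 3 came from 1 library, and a ratio of day 10 to day 4 of 0.24 had an interval of 0.005 to 1.98, so no time course of RNF31 can be read from these counts.

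FAS passed the filter on low values but had a median of 1 UMI per library and 65 UMIs in all, so that its tests are given as values of a gene near the detection limit. The other subunits of LUBAC and its partner deubiquitinase, named here after their values were seen, were well above RNF31 in the same libraries. RBCK1 (HOIL-1) had 1417 UMIs, SHARPIN had 437 and OTULIN had 807. A similar gap was seen between the TRAIL receptors, as TNFRSF10A had 0 UMIs over the 31 libraries and TNFRSF10B had 622.

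The annotation bears on how some of these counts may be read. In GENCODE release 29 (GRCh38), which may differ from the annotation the authors counted on, RNF31 (chromosome 14, 24146683 to 24160661, plus strand) shares 1732 exon bases with AL136295.5, a protein-coding gene on the same strand that overlaps it. Of these, 408 lie in the last 1000 genomic bases of RNF31, up to its outermost annotated 3′ end, a window taken here for the region of 3′ tags. AL136295.5 had no row in the deposited counts, and whether reads of RNF31 were lost through the overlap was not tested. FADD (chromosome 11, 70203163 to 70207390, plus strand) shares 911 exon bases in its last 1000 genomic bases with the antisense gene AP000879.1, which had 280 UMIs against 570 for FADD. TNFRSF10B, on the minus strand of chromosome 8, shares 67 exon bases in this window with RHOBTB2 on the other strand. The strand setting of the counting is not given in the sources used here, so FADD and its antisense partner cannot be told apart with certainty. In the last 1000 genomic bases of RIPK1 (chromosome 6), TRADD and CYLD (both chromosome 16), TRAF2 (chromosome 9), CFLAR (chromosome 2), TNFRSF1A (chromosome 12) and FAS (chromosome 10), no exon base was shared with another gene.

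The first question was what strong XIAP KD did to this machinery. On days 10 and 13, none of the 9 genes tested was called in SFFV/sh-XIAP relative to its control SFFV/sh-CTRL (limma-voom, adjusted p of at most 0.25, the study's threshold), where 14 of 17683 genes, 0.0792%, were called. No member reached an unadjusted p under 0.05, against 988 of all genes. The members' log2 fold changes ran from −0.67 for CFLAR to 0.58 for CYLD with a median of −0.12, beside a median of −0.02 over all genes. These are bulk measurements, in which fewer cells of a kind and less RNA per cell cannot be told apart.

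CFLAR, the inhibitor of caspase-8 activation, was the member nearest to a difference under strong XIAP KD. Its level was 11.2 and 11.3 CPM in the SFFV/sh-CTRL libraries of day 10 and 8.75 and 12.4 CPM in those of day 13. In the SFFV/sh-XIAP libraries it was 5.33, 9.89 and 6.01 CPM on day 10 and 8.50, 6.20 and 8.17 CPM on day 13. Within each day every KD library lay below every control library, and over both days together the groups overlapped. With 3 against 2 libraries a day, 19.1% of all genes tested were without overlap on day 10 and 23.3% on day 13, in either direction. Each CFLAR value rests on 3 to 9 UMIs. The log2 fold change was −0.67 ± 0.34 (SE), with a 95% interval of −1.37 to 0.02 and an adjusted p of 0.895. From pooled UMIs, 32 against 20, the ratio was 0.641 (exact interval 0.356 to 1.18). Day 10 alone gave −0.79 and day 13 alone −0.53 (adjusted p = 0.962 and 0.928).

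CYLD, which removes ubiquitin chains from the receptor complex, had the highest estimate in the same comparison. Its SFFV/sh-CTRL libraries were widely scattered (19.7 ± 15.1 CPM, SD, n = 4), at 20.1 and 7.55 CPM on day 10 and 40.8 and 10.3 CPM on day 13. The SFFV/sh-XIAP libraries ran from 14.2 through 23.6 to 33.5 CPM and so lay inside the range of the controls. The log2 fold change was 0.58 ± 0.36 (SE; interval −0.14 to 1.30, adjusted p = 0.924). It was 1.02 from day 10 alone and 0.13 from day 13 alone, and whether the days differed was not tested.

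RIPK1, the kinase that gives the complex its name, had a log2 fold change of 0.13 under strong XIAP KD (interval −0.59 to 0.84, adjusted p = 0.988). The SFFV/sh-CTRL libraries had 35.7, 22.7, 2.92 and 22.7 CPM, where the value of 2.92 CPM stands for 1 UMI in a day 13 library, and the SFFV/sh-XIAP libraries ran from 9.89 through 21.3 to 33.8 CPM. For the adaptors, the estimates were 0.20 for FADD (interval −0.29 to 0.69), −0.12 for TRAF2 (−0.55 to 0.32) and −0.28 for TRADD (−0.91 to 0.35). For the receptors they were −0.06 for TNFRSF10B (−0.52 to 0.40), −0.22 for TNFRSF1A (−1.02 to 0.57) and −0.34 for FAS (−1.66 to 0.98). For 5 of the 9 genes (RIPK1, FADD, TRADD, TRAF2 and TNFRSF10B) the interval excluded a 2-fold change in either direction, and for the remaining 4 it did not. The estimates of single days were less settled: that of RIPK1 was −0.51 on day 10 and 0.99 on day 13, that of TRAF2 0.24 and −0.41, that of TNFRSF10B −0.21 and 0.17, and that of FAS 0.78 and −1.46, differences between days that were not tested. Besides CFLAR, the groups were without overlap for TRAF2 on day 10 (higher in SFFV/sh-XIAP) and for FAS (lower) and TNFRSF10B (higher) on day 13. That makes 2 of 9 genes on day 10 and 3 of 9 on day 13, shares near the 19.1% and 23.3% of all genes. For FAS on day 13 the groups had 1, 1 and 0 UMIs against 1 and 1 UMI. Its libraries with a UMI were thus set apart by their depth only, and no direction can be read from them.

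Moderate XIAP KD gave a like picture. Between EF1a/sh-XIAP and EF1a/sh-CTRL on days 10 and 13, 0 of the 9 genes were called, where 3 genes, 0.017% of those tested, were called in all. No member had an unadjusted p under 0.05, against 818 of all 17683 genes tested. Log2 fold changes ran from −0.14 for TRADD to 0.49 for FAS (interval −0.76 to 1.74), with a median of 0.16. TNFRSF1A had 0.33 (−0.39 to 1.05), TNFRSF10B 0.25 (−0.20 to 0.70) and FADD 0.24 (−0.19 to 0.66). RIPK1, CYLD and CFLAR were within 0.04 log2 units of no difference, at −0.02, −0.01 and 0.03. The interval lay within 2-fold for 7 genes, all but TNFRSF1A and FAS.

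TNFRSF10B and FADD, which act together in TRAIL signalling, were the members whose groups stood apart on a single day of this comparison. On day 13 TNFRSF10B had 33.1, 39.3 and 32.4 CPM in EF1a/sh-XIAP against 25.1, 22.3 and 21.7 CPM in EF1a/sh-CTRL, and FADD had 33.1, 32.2 and 26.7 CPM against 18.4, 23.9 and 19.9 CPM. For both genes the groups did not overlap on that day, with log2 fold changes of 0.56 and 0.50 (adjusted p = 0.984 for both, limma-voom on day 13 alone). They were 2 of 9 genes, on a day when 9.23% of all genes tested were without overlap between these groups of 3 against 3. On day 10 they overlapped, as TNFRSF10B had 28.0 and 15.7 CPM against 26.5, 22.2 and 44.6 CPM and FADD had 25.7 and 31.4 CPM against 30.3, 25.9 and 33.5 CPM, and the log2 fold changes were −0.38 and −0.09 (adjusted p = 0.972 and 0.988). Whether the effect differed between the days was not tested. On day 10 none of the 9 genes was without overlap, against 20.7% of all genes.

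The difference between strong and moderate XIAP KD was tested directly as an interaction. None of the 9 genes passed, where 1 gene, 0.00566% of those tested, was called in all. None had an unadjusted p under 0.05, against 895 of all 17683 genes tested. The estimates ran from −0.83 for FAS (interval −2.65 to 0.99) and −0.71 for CFLAR (−1.67 to 0.26) to 0.59 for CYLD (−0.37 to 1.55). This comparison was the least precise, as only the intervals of FADD, TRAF2 and TNFRSF10B lay within 2-fold.

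The promoter by itself was addressed by SFFV/sh-CTRL against EF1a/sh-CTRL, which shares its control libraries with both KD comparisons. Again 0 of 9 genes were called, beside 1 gene or 0.00566% of all tested. None had an unadjusted p under 0.05, against 911 of all 17683 genes tested. CYLD had the lowest estimate, −0.46 (interval −1.20 to 0.28, adjusted p = 0.955), and FAS the highest, 0.41 (−0.92 to 1.74). The interval of RIPK1, from −0.86 to 0.58 around −0.14, lay within 2-fold, as did those of 6 other genes. FADD on day 10 was the only member whose groups did not overlap on a single day, at 24.6 and 16.98 CPM in SFFV/sh-CTRL against 30.3, 25.9 and 33.5 CPM in EF1a/sh-CTRL. This was 1 of 9 genes where 19.7% of all genes were without overlap on day 10, and on day 13 it was 0 of 9 against 19.9%.

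**Figure D2:**
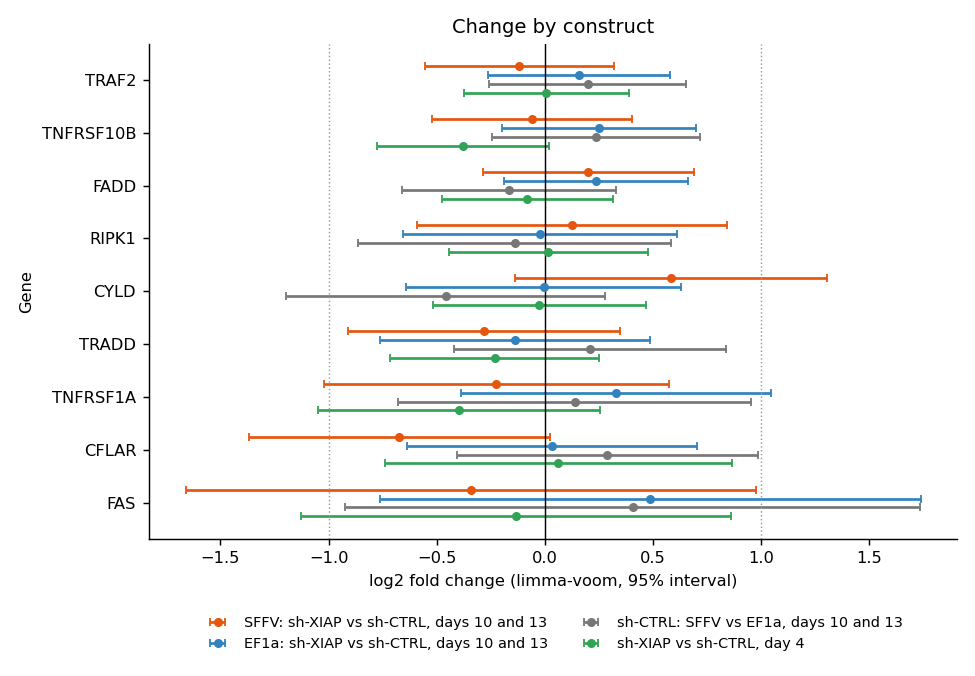
Log2 fold change with its 95% interval (x axis, limma-voom) for the 9 genes tested (y axis): strong XIAP KD in orange, moderate XIAP KD in blue and the promoter comparison in grey, all on days 10 and 13, and sh-XIAP against sh-CTRL at day 4 in green; dotted lines mark a 2-fold change. Every interval includes 0, that of CFLAR under strong XIAP KD reaching from −1.37 to 0.02.

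At day 4, before the days used by the study, both sh-XIAP constructs together were set against both sh-CTRL constructs (4 against 6 libraries). None of the 9 genes was called and none had an unadjusted p under 0.05. Of all 18336 genes tested, 14 or 0.0764% were called and 912 had an unadjusted p under 0.05. The member nearest to a difference was TNFRSF10B. Its level was 35.9 and 21.7 CPM in EF1a/sh-XIAP and 29.4 and 23.8 CPM in SFFV/sh-XIAP, while the 6 sh-CTRL libraries ran from 29.6 through 35.0 to 47.6 CPM. Of the sh-XIAP libraries 3 lay below every sh-CTRL library and 1 lay among them. The log2 fold change was −0.38 ± 0.20 (SE; interval −0.78 to 0.02, adjusted p = 0.970). RIPK1 and TRAF2 were close to level at this day, with 0.02 (interval −0.44 to 0.48) and 0.01 (−0.37 to 0.39).

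**Figure D3:**
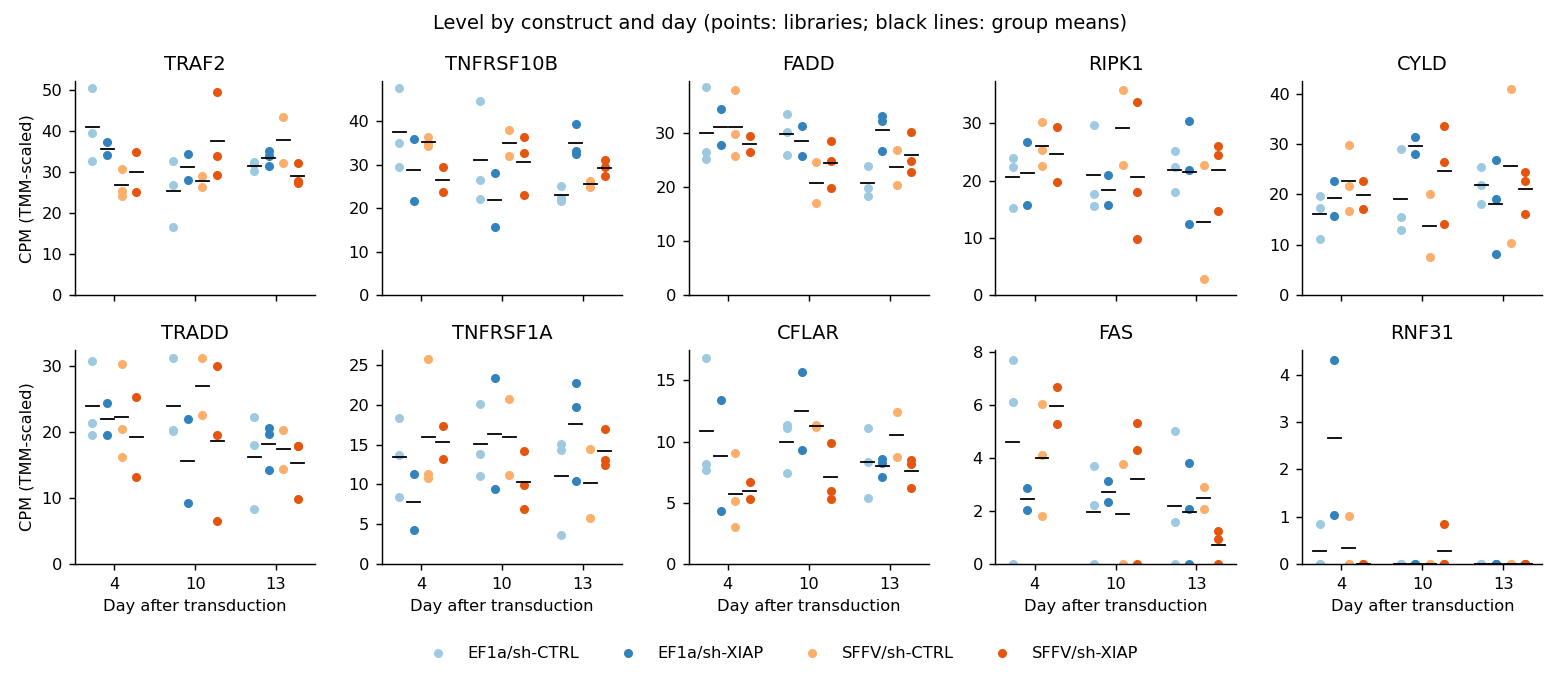
Level of each gene (y axis, CPM after TMM scaling, each panel on its own scale) by day after transduction (x axis: 4, 10 and 13) and construct; points are libraries and black lines group means. The mean of FAS over all constructs is highest at day 4 (4.27 CPM), and RNF31 is at 0 in every library of day 13.

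The course over time was the other axis of the design, and here day 13 was set against day 4 over all 31 libraries with the construct held constant. No member was called, where 91 of 17676 genes, 0.515%, were. Unadjusted p-values under 0.05 were seen for 2 members, FAS and TRADD, against 1141 of all genes. The members' median log2 fold change was −0.11, with 7 estimates below 0 and 2 above, beside a median of 0.00 over all genes.

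FAS, the receptor of FAS ligand, was lowest late. At day 4 its level ran from 0 through a median of 4.70 to 7.71 CPM in 10 libraries, at day 10 from 0 through 2.73 to 5.33 CPM in 10, and at day 13 from 0 through 1.59 to 5.03 CPM in 11. The days overlapped, and libraries without a FAS UMI were present at each of them. In UMIs, FAS had 37, 15 and 13 at the 3 days, so that day 13 pooled was 0.385 of day 4 (exact interval 0.188 to 0.741). The fitted log2 fold change was −1.11 ± 0.41 (SE; interval −1.94 to −0.28), and its adjusted p was 0.580. For day 10 against day 4 it was −0.67 (interval −1.51 to 0.17, adjusted p = 0.847).

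By construct, FAS at day 4 had 6.12, 0 and 7.71 CPM in EF1a/sh-CTRL, 2.87 and 2.06 CPM in EF1a/sh-XIAP, 4.11, 1.81 and 6.06 CPM in SFFV/sh-CTRL and 6.68 and 5.29 CPM in SFFV/sh-XIAP. At day 13 it had 5.03, 1.59 and 0 CPM in EF1a/sh-CTRL, 2.07, 0 and 3.81 CPM in EF1a/sh-XIAP, 2.92 and 2.07 CPM in SFFV/sh-CTRL and 0.943, 1.24 and 0 CPM in SFFV/sh-XIAP. Each of these values stands for 0 to 9 UMIs, and whether the course differed between constructs was not tested. Depth moved with the day as well, with a median of 751953 UMIs per library at day 4, 482267 at day 10 and 603822 at day 13; with the depth as a covariate, a choice made after seeing the data, FAS had a log2 fold change of −0.99 for day 13 against day 4.

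TRADD, the adaptor that links TNFRSF1A to RIPK1 and TRAF2, was the other member with a low unadjusted p. Its level ran from 13.2 through 20.98 to 30.8 CPM at day 4, from 6.60 through 21.2 to 31.3 CPM at day 10, and from 8.38 through 17.98 to 22.3 CPM at day 13. The top of the range and the median were lowest at day 13, and the days overlapped. The log2 fold change was −0.42 ± 0.19 (SE; interval −0.81 to −0.03, adjusted p = 0.730) for day 13 against day 4, and −0.42 (−0.80 to −0.03, adjusted p = 0.796) against day 10. Pooled UMIs were 178, 126 and 117 at the 3 days, a ratio of 0.72 for day 13 against day 4 (exact interval 0.565 to 0.914). Day 10 and day 4 were level, at −0.01 (−0.40 to 0.39).

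The other members were held within narrow bounds over time. For day 13 against day 4, TRAF2 had −0.05 (interval −0.31 to 0.21), TNFRSF10B −0.11 (−0.39 to 0.17), RIPK1 −0.15 (−0.55 to 0.25), CYLD −0.04 (−0.45 to 0.37) and TNFRSF1A 0.05 (−0.46 to 0.56). FADD was at −0.25 (−0.51 to 0.02, adjusted p = 0.805), and CFLAR alone besides TNFRSF1A was above 0, at 0.25 (−0.24 to 0.74). All but FAS had an interval within 2-fold in each of the 3 day comparisons. For TRAF2 this bounds a change from day 4 to day 13 between 0.808-fold and 1.16-fold.

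For day 10 against day 4, 46 genes or 0.26% were called in all, and 0 of the 9 members. None of the members had an unadjusted p under 0.05, against 1113 of all 17676 genes tested. CFLAR had the highest estimate there, 0.42 (interval −0.08 to 0.91, adjusted p = 0.838), on 60 UMIs at day 4 and 51 at day 10. For day 13 against day 10, 4 genes or 0.0226% were called in all and again 0 members. An unadjusted p under 0.05 was seen for TRADD only among the members, against 1057 of all 17676 genes tested. These day comparisons share libraries with one another and are not independent.

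**Figure D4:**
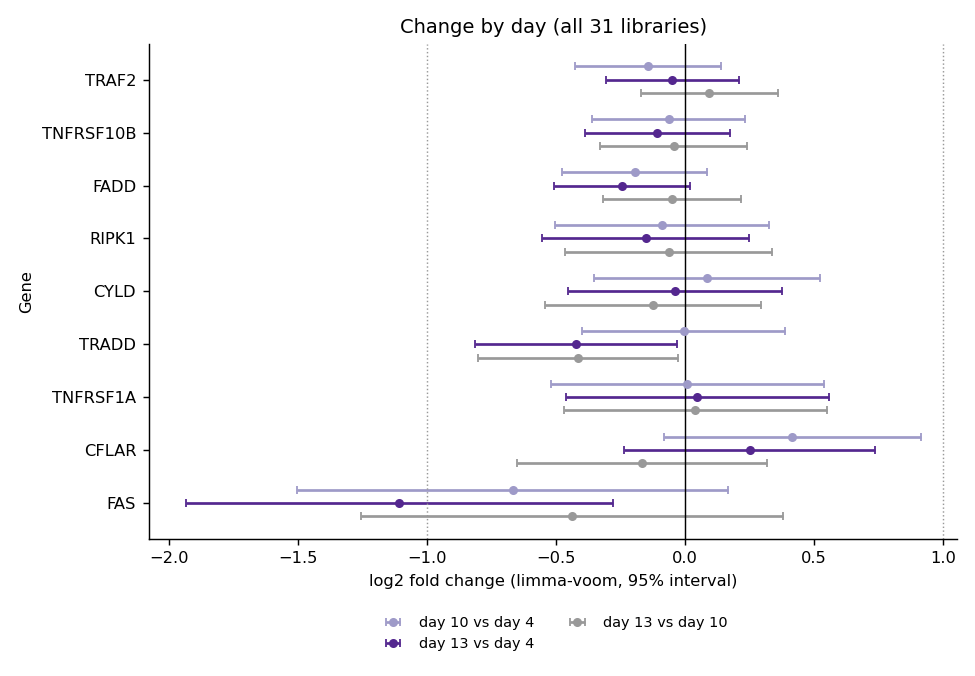
Log2 fold change with its 95% interval (x axis, limma-voom, all 31 libraries) between days for the 9 genes tested (y axis): day 10 against day 4 in light purple, day 13 against day 4 in dark purple and day 13 against day 10 in grey; dotted lines mark a 2-fold change. The intervals of FAS for day 13 against day 4 (−1.94 to −0.28) and of TRADD for day 13 against both earlier days lie below 0, and all others include it.

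No gene of the wider pathway was called either. Of 68 further genes of death receptor signalling, 53 could be tested (54 at day 4): 5 of 11 ligands, 5 of 11 receptors, 19 of 21 adaptors, kinases and caspases, and 24 of 25 genes of the ubiquitin and IKK machinery. The count of genes called was 0 higher and 0 lower in each of the 8 comparisons. The smallest p under strong XIAP KD was that of IKBKB, the kinase IKKβ that activates NF-κB, with a log2 fold change of −0.73 (interval −1.13 to −0.33, adjusted p = 0.324); it also had the smallest p for strong minus moderate XIAP KD (−0.77, adjusted p = 0.964). Under moderate XIAP KD it was LTA, the ligand lymphotoxin alpha (−1.39, adjusted p = 0.992), and for the promoter FAF1, a FAS-associated factor (−0.49, adjusted p = 0.923). ITCH, a ubiquitin ligase, had the smallest p at day 4 (0.60, adjusted p = 0.960).

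Over time, the pathway genes with the smallest p were TRAF5, a relative of TRAF2, for day 13 against day 4 (−0.83, adjusted p = 0.538), OPTN, a ubiquitin-binding adaptor, for day 10 against day 4 (0.31, adjusted p = 0.637), and UBE2L3, the ubiquitin-conjugating enzyme that works with LUBAC, for day 13 against day 10 (−0.21, adjusted p = 0.756). The median log2 fold change over all tested pathway genes together lay between −0.09 and 0.05 in the 8 comparisons. Medians of the 5 ligands tested on days 10 and 13 ranged more widely. They were −0.81 for strong minus moderate XIAP KD, −0.69 for strong XIAP KD, 0.09 for moderate XIAP KD and 0.65 for the promoter, on genes of few UMIs. The SFFV/sh-CTRL libraries are subtracted in both comparisons that involve strong XIAP KD and added in that of the promoter. These medians of opposite sign are therefore not independent.

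Whether the members vary together across libraries cannot be read from these counts, as much of their scatter was of the size of counting noise. Over the 36 pairs of the 9 genes, Spearman correlations of log2 CPM across the 31 libraries ran from −0.44 to 0.32 with a median of 0.00, as a description of libraries that share constructs, days and counting noise. The genes whose pattern was most like that of TRAF2, the member of highest level, were DBF4B (rho 0.71, 3.20 CPM), CAND2 (0.68, 6.45 CPM) and NANS (0.60, 79.4 CPM), the closest of all genes tested. They are the highest of many correlations in the same libraries, and what chance gives for such a pick was not computed. The scatter of TRAF2 was no larger than that of counting, so no shared regulation can be read from these values.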

How the data were processed

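NALM-6 libraries were made with prime-seq. A single table of raw UMI counts per gene (30667 genes, 31 samples) was deposited by the authors, not normalized. The submitters' processing notes name STAR 2.6.0a and the builds hg38/GRCh38 and mm10/GRCm38; the counting tool, annotation and strand setting were not given in the sources used here. Samples were grouped by their labels, and none of the 31 deposited was left out here. The paper states that samples seen as outliers by principal component analysis were excluded. Replicate numbers have gaps, as SFFV/sh-XIAP at day 4 has replicates 1 and 3 only. EF1a/sh-XIAP at days 4 and 10 and SFFV/sh-CTRL at days 10 and 13 likewise had 2 libraries each, where every other group had 3. These gaps are as many as the samples that the paper excluded, although no source used here states that they are the same samples. If they are, the spread behind the p-values is that left after outliers were removed. Depth is 312852 to 1153668 UMIs, so a gene at 1 CPM has about 1 UMI per library or fewer.

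Counts were TMM-scaled (edgeR 4.0.16) and tested with limma-voom (limma 3.58.1, R 4.3.3) on genes over 1 CPM in at least 33.3% of the libraries of a fit, with Benjamini-Hochberg adjustment over all genes tested and a threshold of 0.25. Construct comparisons used the 21 libraries of days 10 and 13 (construct and day as terms), day 4 its 10 libraries, and day comparisons all 31. Standard errors and intervals are those of the moderated fit, and pooled UMI ratios carry exact 95% Clopper-Pearson intervals. On simulated counts for strong XIAP KD (17187 genes), 87.5% of 200 genes changed 2-fold were recovered with 61 false calls. The changed genes were drawn from those with a mean of at least 10 UMIs per library on days 10 and 13. TNFRSF1A, CFLAR, FAS and RNF31 did not reach that mean, and the rate was not computed for genes at the level of the members. With many changed genes the Benjamini-Hochberg adjustment also accepts larger p-values than in the real fit, where only 14 genes were called. The rate is therefore not the chance of calling a member changed 2-fold in these data.

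Named were all 10 members, XIAP, the pathway gene with the smallest p where none was called, and the 3 genes most correlated with the most abundant member. The members and lists were chosen with earlier results of these data known. No 2 libraries agreed within sampling noise (chi-square per gene 1.07 to 2.43 over 26 replicate pairs). The highest values were those of EF1a/sh-CTRL day 4 replicate 2 (2.04 and 2.43) and SFFV/sh-XIAP day 10 replicate 2 (1.71 and 2.18). Both libraries also had the highest shares of mitochondrial UMIs, 2.11% and 2.12%. Without the SFFV/sh-XIAP library, 45 genes in place of 14 were called under strong XIAP KD, and 0 members. Same-numbered libraries did not deviate together (mean correlation 0.000914 over 78 pairs, 0 over 0.1), so replicate numbers were not treated as pairs. Alternatives were edgeR's quasi-likelihood test, DESeq2 1.42.0, limma-trend, other scalings and filters, a replicate block, a threshold of 0.05, subsets of libraries and, chosen after seeing the data, depth as a covariate and leaving out both shallowest libraries.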

Additional observations from a re-analysis of the deposited data

Results flagged for a closer look

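A library stood apart from the others of its construct on days 10 and 13 in 4 of 36 sets of 4 to 6 libraries, by the gap to its nearest neighbour relative to the whole range (Dixon's 95% critical value); chance alone gives about 1 in 20. RNF31, with too few UMIs for such a gap to mean anything, was not included. TNFRSF10B in EF1a/sh-CTRL day 10 replicate 3 was at 44.6 CPM (20 UMIs; gap 0.791), while the next library was at 26.5 CPM. TRAF2 in SFFV/sh-XIAP day 10 replicate 2 was at 49.5 CPM (15 UMIs; gap 0.710) above 33.8 CPM, and TRAF2 in EF1a/sh-CTRL day 10 replicate 2 was at 16.7 CPM (9 UMIs; gap 0.627) below 26.8 CPM. CFLAR in EF1a/sh-XIAP day 10 replicate 2 was at 15.7 CPM on 5 UMIs (gap 0.744). Of these libraries, the SFFV/sh-XIAP and EF1a/sh-XIAP replicates 2 of day 10 were the shallowest of the series.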

How the results depend on the processing

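The count of members called stayed at 0 in 293 of 294 alternative fits; the exception was day 10 against day 4 with no filter on low counts, where 1 member was called (CFLAR, log2 fold change 0.43, adjusted p 0.244) while 8868 genes were called in all, and the cause was not tested. With a replicate block 0 members were called in every comparison. Leaving out each library in turn gave 0 to 0 members throughout. No called value changed sign, as none was called; 203 of 2630 alternative log2 fold changes took the other sign. FAS at day 13 against day 4 ranged from −1.33 to −0.58 (adjusted p 0.362 to 0.896) over 42 alternatives, and CFLAR under strong XIAP KD from −0.79 to −0.44 (lowest adjusted p 0.596). The mean levels moved by less than 1 SD without TMM scaling. Counts over all genes were less stable: strong XIAP KD 14 (0 with DESeq2 to 63 with only its constructs), moderate 3 (0 to 23), strong minus moderate 1 (0 to 34), promoter 1 (0 to 32), sh-XIAP at day 4 14 (0 to 25), day 13 against day 4 91 (31 to 128), day 10 against day 4 46 (15 to 8868), and day 13 against day 10 4 (1 to 38). Depth limits what can be said: with a median of 5 UMIs per library for CFLAR and 1 for FAS, their intervals under strong XIAP KD reached past a 2-fold difference.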
